A study of Mus musculus with 8 samples.

Results

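The membrane adenylyl cyclases are the enzymes that make cyclic AMP (cAMP) from ATP. Their 9 genes, Adcy1 to Adcy9, were taken by symbol from the 57186 genes listed for each library. All 9 were matched to an Ensembl identifier and all 9 were among the 16766 genes that passed the filter on low counts. The RNA is from mouse brain, with 4 control libraries and 4 libraries of an Akap11 conditional knockout (cKO). The sources used here do not give the strain, age, sex, brain region, recombinase line or targeted exons, nor which alleles the controls carry. Nor do they tie each library to its own mouse, and p-values therefore reflect the spread among libraries, which may be technical.

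Cyclic AMP activates protein kinase A (PKA), the kinase that AKAP11 anchors, so the cyclases stand at the head of the pathway named in the study's title. All membrane cyclases are stimulated by the G protein alpha subunits Gs and Golf, which carry the signal of receptors for dopamine, adenosine, noradrenaline and other transmitters. They differ in their other inputs. Adcy1, Adcy3 and Adcy8 encode enzymes stimulated by calcium and calmodulin, Adcy5 and Adcy6 encode enzymes inhibited by calcium and by Gi, and Adcy2, Adcy4 and Adcy7 encode enzymes stimulated by G protein beta-gamma subunits. Adcy9 encodes the member least sensitive to forskolin, a plant compound that activates the others directly.

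Reads in genes ranged from 13841218 to 19991942 per library, and the 9 cyclase genes together held 25340 to 33923 of them. Genes took 63.8% of the listed reads of cKO replicate 1 and 73.7% to 79.7% elsewhere, and cKO replicate 1 lay apart on the first principal component. Control replicate 1 lay apart on the second. Neuronal markers were present in every library (summed level of 5 genes 4672 to 5339 CPM, counts scaled to a common library size by TMM), as were 9 striatal markers (1016 to 1193 CPM) and 8 markers of cortical excitatory neurons (1368 to 1629 CPM). The 6 markers of cerebellar granule cells summed to 69.97 to 113 CPM and the 3 Purkinje cell markers to 10.2 to 23.2 CPM, and the defining markers Gabra6 and Pcp2 each averaged under 1 CPM. Akap11 (ENSMUSG00000022016, chromosome 14), the targeted gene, held 373, 312, 315 and 291 CPM across the controls and 220, 214, 237 and 240 CPM across the cKO libraries, each in order of replicate number. The groups did not overlap, and the log2 change was -0.50 (SE 0.069, edgeR adjusted p 0.0103), a partial loss of the transcript in whole-tissue RNA. Reads of undeleted exons are counted too.

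Upstream sequences are shown for the cyclase genes at the top and at the bottom of the level range described next, as the 5′ context of those levels. They are RefSeq sequences on GRCm38.p6, not the GRCm39 build of the counts, and reach from the window's edge to the base before the outermost annotated start of each gene. Capitals mark the GC box GGGCGG on either strand.
Adcy1, chr11:7063183-7063432, plus strand, 250 bases: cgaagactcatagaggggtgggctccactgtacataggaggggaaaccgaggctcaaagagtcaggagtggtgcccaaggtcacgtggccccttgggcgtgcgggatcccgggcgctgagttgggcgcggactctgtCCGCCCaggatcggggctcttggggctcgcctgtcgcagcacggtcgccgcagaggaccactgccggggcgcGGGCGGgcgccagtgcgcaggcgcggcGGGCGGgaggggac
Adcy4, chr14:55784096-55784322, minus strand, 227 bases: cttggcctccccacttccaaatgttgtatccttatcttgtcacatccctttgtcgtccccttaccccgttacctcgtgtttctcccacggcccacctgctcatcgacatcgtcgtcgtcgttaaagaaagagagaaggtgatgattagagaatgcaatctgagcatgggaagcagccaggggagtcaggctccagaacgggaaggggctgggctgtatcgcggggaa
The Adcy1 sequence holds 3 GC boxes and 26 CpG dinucleotides, and the Adcy4 sequence holds 0 GC boxes and 12 CpG dinucleotides. In the 250 bases before each start, GC content was 71.2% for Adcy1 and 56.0% for Adcy4, against a median of 52.4% over all 32851 RefSeq windows, of which 32.7% hold a GC box.

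Windows were at hand for 7 of the 9 cyclase genes, all but Adcy6 and Adcy8, with 10 windows in all. The cAMP response element TGACGTCA, the site through which the PKA target CREB acts on genes, was in 0 of the 10 windows and in 1.55% of all windows. Its core TGACG, searched on both strands and contained in the full element, was in 1 window each of Adcy7 and Adcy9 and in 17.8% of all windows. The windows of Adcy5 and Adcy9 each held 4 GC boxes, that of Adcy2 held 2, and the 3 windows of Adcy7 held 0, 0 and 1. These matches describe the letters of the windows and were not set against the counts by any test.

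Adcy1 was the most abundant membrane cyclase transcript in every library, followed by Adcy5 and Adcy2. Levels are compared between genes as CPM per kilobase of the union of annotated exons. On that scale Adcy1, the neuronal calcium-stimulated cyclase, stood at 77.3 ± 7.55 in control and 73.6 ± 2.68 in cKO brain (SD, n = 4 per group), above 97.2% of the tested genes with a known length. Adcy5, the principal cyclase of striatal neurons, followed at 53.7 ± 1.63 and 53.5 ± 5.81, and Adcy2 at 34.6 ± 1.85 and 35.6 ± 2.40. Adcy9 came next at 14.0 ± 1.38 and 13.1 ± 0.727. Adcy6, Adcy3, the cyclase of neuronal primary cilia and olfactory neurons, and Adcy8 lay between 5.18 and 8.40 in control brain. The lowest were Adcy7, known from immune cells, at 1.96 ± 0.294 and 2.19 ± 0.147, and Adcy4, known from endothelium, at 0.904 ± 0.0455 and 0.909 ± 0.139. Over the genes tested the median was 4.41 CPM per kilobase.

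As shares of the 9 genes per kilobase of exon, the calcium-stimulated members (Adcy1, Adcy3 and Adcy8) made up 44.2% ± 1.48 in control and 43.5% ± 0.837 in cKO brain (SD, n = 4). The calcium-inhibited pair, Adcy5 and Adcy6, made up 30.5% ± 0.996 and 30.8% ± 1.64. The beta-gamma-stimulated members (Adcy2, Adcy4 and Adcy7) made up 18.4% ± 0.927 and 19.2% ± 0.786, and Adcy9 made up 6.84% ± 0.395 and 6.52% ± 0.238. Both groups overlapped in each of these 4 shares. The 3 genes Adcy1, Adcy5 and Adcy2, held 80.2% to 81.9% of the total in every library.

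**Figure D1:**
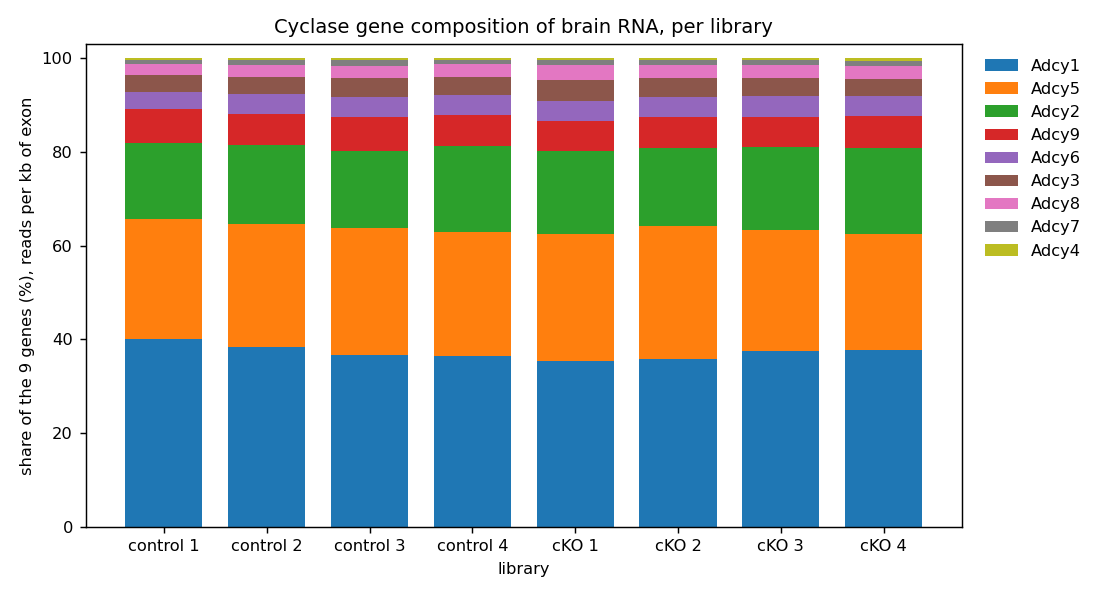
Share of each of the 9 membrane cyclase genes in percent, from reads per kilobase of exon union, as stacked bars for the 8 libraries (x axis). Adcy1 holds 35.4% to 40.1% and Adcy5 24.6% to 28.3% of each bar, and the order of the large segments is the same in all 8 libraries.

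Of the 8 steps in this order, 7 separated genes whose ranges over the 8 libraries did not overlap. The exception was Adcy6 over Adcy3, which held in 6 of 8 libraries (3.59% to 4.39% against 3.65% to 4.48%). The order of Adcy1, Adcy5 and Adcy2 at the top and of Adcy7 and Adcy4 at the bottom was the same with the longest transcript, with coding length and with no division by length. The middle of the order was less fixed. With coding length, Adcy9 lay above Adcy6 in 4 of 8 libraries. With coding length or no division by length, the ranges of Adcy6 and Adcy3 overlapped, as did those of Adcy3 and Adcy8.

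The size of the Adcy1 share depended on the length used. Its longest transcript has 12259 bases, of which 3354 are coding, whereas that of Adcy2 has 4211 bases, of which 3285 are coding. Divided by coding length, Adcy1 made up 57.7% and Adcy2 8.90% of the total in control brain, against 37.9% and 17.0% with exon union. Adcy5 moved less, from 26.4% to 20.4%. Which ends of these transcripts the brain uses cannot be read from counts per gene, and lengths are those of GENCODE M21, since the sources used here do not name the annotation used for counting.

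**Figure D2:**
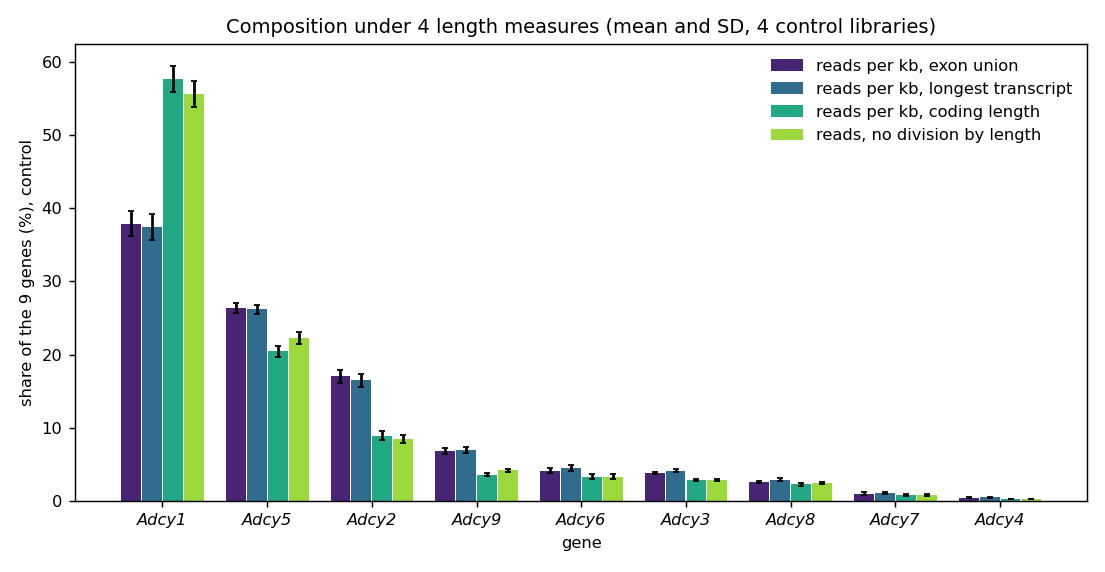
Mean share in percent of each cyclase gene over the 4 control libraries (bars, with SD) under 4 ways of dividing reads by length. Adcy1 is the tallest bar under each, at 37.9% with exon union and 57.7% with coding length.

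No cyclase gene passed the test for a change between control and cKO brain. The question was whether the genes of the cAMP-producing enzymes respond at the RNA level when the PKA anchor Akap11 is deleted. By edgeR's quasi-likelihood test, 0 of 9 passed an adjusted p of 0.05, where 0.0239% of all tested genes passed, 2 of them higher (0.0119%) and 2 lower (0.0119%). An unadjusted edgeR p under 0.05 was reached by 0 of 9 (4.78% of all genes), and the groups did not overlap in 0 of 9 (2.96% of all genes). DESeq2 and limma voom also called 0 of 9 (0.0124% and 0.0239% of genes). Adjusted edgeR p-values ran from 0.889 to 0.997. The log2 fold changes, cKO minus control, were positive for 6 and negative for 3 genes, with a median of 0.04 beside 0.0034 over all genes.

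**Figure D3:**
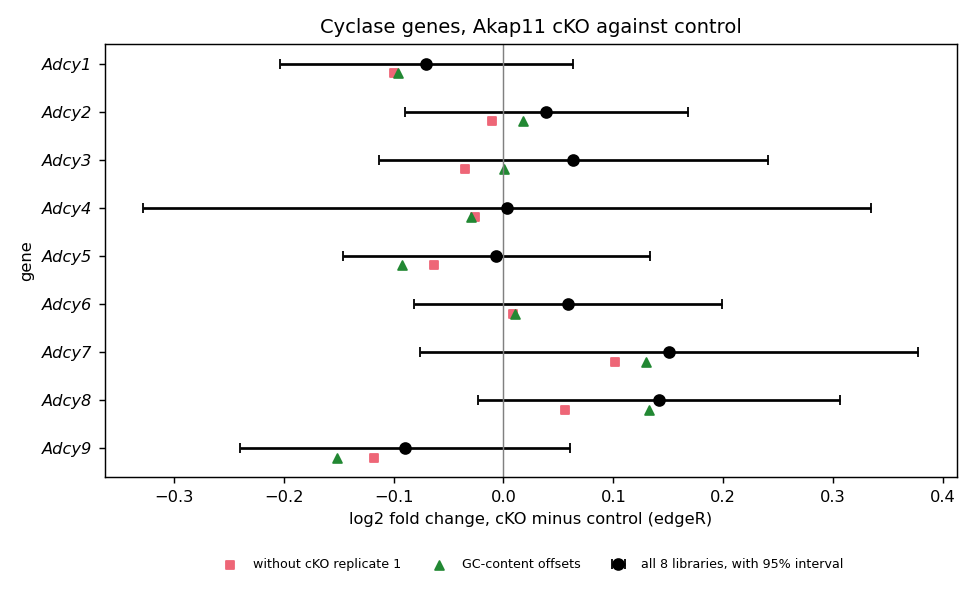
Log2 fold change of each cyclase gene (x axis, cKO minus control, edgeR) with its 95% interval over all 8 libraries. Squares leave out cKO replicate 1, and triangles are from the fit with offsets for GC content. Every interval spans 0, and the widest, that of Adcy4, runs from -0.33 to 0.33.

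In the main fit, the 95% intervals give a range for the difference of each gene in whole-tissue RNA, taken from the spread among libraries. No intervals are given for the alternative fits. For all 9 genes the 95% interval lay within a 1.5-fold change in either direction, as it did for 76.8% of all genes tested. For 6 of 9, all but Adcy4, Adcy7 and Adcy8, it lay within 1.2-fold, as it did for 40.4% of all genes. In bulk tissue fewer cells of a type and less RNA per cell cannot be told apart, and any cells that keep Akap11 are included.

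Among the calcium-stimulated members, Adcy1 (ENSMUSG00000020431, chromosome 11) had levels of 1105, 954, 902 and 910 CPM in the 4 controls and 970, 909, 892 and 916 CPM in the 4 cKO libraries, by replicate number. Control replicate 1 was the highest, and the other libraries lay within a narrow range in which the groups overlapped. The log2 fold change was -0.07 (SE 0.064, 95% interval -0.20 to 0.06, edgeR adjusted p 0.900). Without control replicate 1 it was 0.0029.

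Adcy8 (ENSMUSG00000022376, chromosome 15), which serves synaptic calcium signals together with Adcy1, stood at 41.4, 42.4, 41.0 and 44.0 CPM in the 4 controls and at 54.8, 46.3, 42.8 and 42.9 CPM in the 4 cKO libraries, by replicate number. In all, 2 cKO libraries lay above all controls and the other two lay within the control range. Its unadjusted edgeR p of 0.0875 was the lowest of the 9, and cKO minus control in log2 came to 0.14 (SE 0.079, 95% interval -0.02 to 0.31, edgeR adjusted p 0.889). Without cKO replicate 1, its highest library, the log2 fold change was 0.06.

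The share of Adcy8 per kilobase of exon was the only one of the 9 shares whose groups did not overlap. In CPM, 2.96% of all genes tested had groups that did not overlap, and the groups of Adcy8 overlapped. The Adcy8 share was 2.31%, 2.61%, 2.55% and 2.71% in the 4 controls and 3.07%, 2.79%, 2.76% and 2.72% in the 4 cKO libraries, by replicate number. The lowest cKO value and the highest control value were 2.72% and 2.71%. With the longest transcript they also did not overlap, and with coding length or no division by length they overlapped, so the separation rests on the length used.

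Adcy3 (ENSMUSG00000020654, chromosome 12) stood at 51.8, 45.3, 49.7 and 48.1 CPM in the 4 controls and at 61.3, 51.4, 46.5 and 45.2 CPM in the 4 cKO libraries, by replicate number. Only cKO replicate 1 lay above the controls. The log2 fold change was 0.06 (SE 0.085, 95% interval -0.11 to 0.24, edgeR adjusted p 0.923), and -0.04 without cKO replicate 1. Cenpo, on the opposite strand, overlaps 22.1% of the Adcy3 exon bases in GENCODE M21. Cenpo held 437 reads over the 8 libraries and Adcy3 held 7072, and the sources used here do not give the strand setting of the counting.

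Of the calcium-inhibited pair, Adcy5 (ENSMUSG00000022840, chromosome 16) stood at 403, 377, 383 and 380 CPM in control replicates 1 to 4. The cKO replicates 1 to 4 held 426, 414, 354 and 343 CPM. Of the cKO libraries, 2 lay above every control and the other two below every control, so that the group means of 386 ± 11.7 and 384 ± 41.8 CPM (SD, n = 4) were close while the cKO values were more spread. The log2 fold change was -0.0064 (SE 0.067, 95% interval -0.15 to 0.13, edgeR adjusted p 0.992). The summed level of the 9 striatal markers in cKO replicates 1 to 4 was 1083, 1177, 1016 and 1062 CPM, against 1073 to 1193 CPM in control libraries.

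Adcy6 (ENSMUSG00000022994, chromosome 15), expressed in many tissues, stood at 53.5, 58.9, 58.2 and 57.3 CPM in the 4 controls and at 65.3, 60.3, 56.2 and 56.0 CPM in the 4 cKO libraries, by replicate number. The 2 highest values were from cKO libraries and the lowest from control replicate 1. The log2 fold change was 0.06 (SE 0.067, 95% interval -0.08 to 0.20, edgeR adjusted p 0.913), and 0.0089 without cKO replicate 1.

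Among the beta-gamma-stimulated members, Adcy2 (ENSMUSG00000021536, chromosome 13) stood at 151, 141, 138 and 154 CPM in the 4 controls and at 164, 143, 142 and 150 CPM in the 4 cKO libraries, by replicate number. The groups overlapped apart from cKO replicate 1. The log2 fold change was 0.04 (SE 0.062, 95% interval -0.09 to 0.17, edgeR adjusted p 0.930), and -0.01 without that library. An antisense gene, Gm35161, overlaps 4.49% of its exon bases and held 443 reads against 21023 of Adcy2 over the 8 libraries.

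Adcy7 (ENSMUSG00000031659, chromosome 8) had the largest log2 fold change of the 9, 0.15 (SE 0.11, 95% interval -0.08 to 0.38, edgeR adjusted p 0.889). Its levels were 12.3, 12.4, 16.2 and 11.996 CPM in the 4 controls and 16.2, 14.1, 14.2 and 14.5 CPM in the 4 cKO libraries, by replicate number. Control replicate 3 lay as high as the highest cKO library, and the other 3 controls lay below every cKO library. Without control replicate 3 the log2 fold change was 0.26 (unadjusted edgeR p 0.0241, adjusted 0.963). The 8 microglial markers summed to 292 to 338 CPM in control and 303 to 330 CPM in cKO libraries.

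Adcy4 (ENSMUSG00000022220, chromosome 14) stood at 4.04, 4.33, 4.05 and 4.47 CPM in the 4 controls and at 4.49, 3.78, 3.67 and 5.06 CPM in the 4 cKO libraries, by replicate number. Of the cKO libraries, 2 lay above and 2 below the controls. Its log2 fold change was 0.0033 (SE 0.16, edgeR adjusted p 0.997). Single libraries held 62 to 93 reads of Adcy4, for which counting alone gives an error of 12.7% to 10.4% per library. The 95% interval of the difference between groups ran from -20.3% to 26.1%. The 8 endothelial markers summed to 261 to 289 CPM in control and 250 to 269 CPM in cKO libraries.

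Adcy9 (ENSMUSG00000005580, chromosome 16), which stands apart from the 3 classes, stood at 82.5, 67.2, 73.2 and 67.4 CPM in the 4 controls and at 71.9, 69.3, 62.9 and 68.9 CPM in the 4 cKO libraries, by replicate number. Control replicate 1 was the highest and cKO replicate 3 the lowest library. The log2 fold change was -0.09 (SE 0.072, 95% interval -0.24 to 0.06, edgeR adjusted p 0.892). It was -0.02 without control replicate 1 and -0.15 when offsets for GC content were used.

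**Figure D4:**
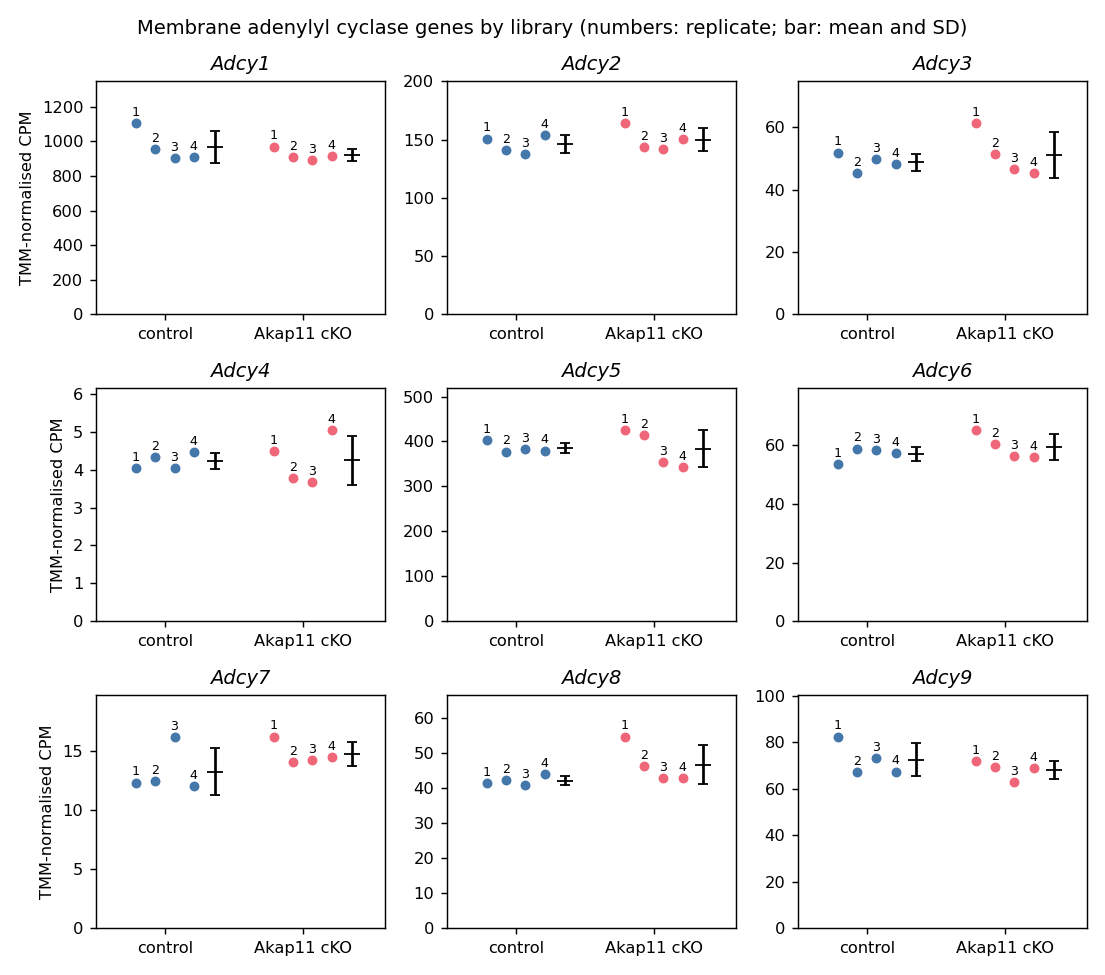
TMM-normalised CPM of each cyclase gene (y axis, from 0) in the 4 control and 4 cKO libraries, numbered by replicate, with the group mean and SD beside them. The groups overlap in all 9 panels, and cKO replicate 1 is the highest point for Adcy2, Adcy3, Adcy5, Adcy6, Adcy7 and Adcy8.

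A single library set the top of the range for most members. Of the 9 genes, 6 were highest in cKO replicate 1, 2 in control replicate 1 and 1 in cKO replicate 4. No such share is given over all genes, so the count is not read as a trait of the cyclases. The cKO replicate 1 library had the lowest share of reads in genes and the highest share of reads that could belong to more than 1 gene (10.1%, against 5.14% to 6.16% in the others). The cyclase transcripts have a GC content of 50.8% to 59.5% (median 54.0%, against 49.6% over the tested genes). The part of library quality and GC content in these levels was not tested. Without cKO replicate 1 the median log2 fold change of the 9 genes was -0.03, and with GC-content offsets it was 0.00052.

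The summed level of the 9 genes was 1737 ± 113 CPM in the controls and 1700 ± 97.8 CPM in cKO brain (SD, n = 4). Control replicate 1 (1905 CPM) and cKO replicate 1 (1834 CPM) were the highest and the other libraries lay between 1614 and 1712 CPM. The ratio of Adcy1 to Adcy5 per kilobase of exon ranged from 1.26 in cKO replicate 2 to 1.57 in control replicate 1, and the groups overlapped.

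Across the 8 libraries, 4 relations between a cyclase gene and markers of a cell type or region were computed on log2 CPM, and none passed the exact permutation test (two-sided). Adcy5 and the striatal markers gave Pearson's r 0.541 (exact permutation p 0.174, adjusted over the 4 relations 0.348) and Spearman's rho 0.548 (exact p 0.171, adjusted 0.393), with r 0.304 without the 2 libraries farthest from the median marker level. Adcy1 and the cortical excitatory markers gave r 0.604 (exact p 0.0879, adjusted 0.348) and rho 0.524 (exact p 0.197, adjusted 0.393), with r 0.478 without 2 libraries. Adcy7 and the microglial markers gave r 0.0969 (exact p 0.825, adjusted 0.825) and rho 0.333 (exact p 0.428, adjusted 0.536), with r 0.793 without 2 libraries, so the value rests on control replicates 1 and 4. Adcy4 and the endothelial markers gave r -0.347 (exact p 0.402, adjusted 0.537) and rho -0.262 (exact p 0.536, adjusted 0.536), with r 0.294 without control replicate 1 and cKO replicate 4. Groups of 4 were too small for a value within each group.

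The genes whose log2 CPM followed each member most closely over the 8 libraries, among 10069 or 10070 genes, are given as a description. For Adcy1 this was Tanc2, a postsynaptic scaffold gene (Pearson's r 0.976), for Adcy5 it was Jph3, a gene of neuronal junctional membranes (0.977), and for Adcy8 it was Atp13a2, a lysosomal transport gene (0.989). For Adcy3 it was Srebf2, a regulator of cholesterol synthesis (0.984), for Adcy6 Csmd2 (0.978) and for Adcy9 the splicing gene Snrnp200 (0.969). For Adcy2, Adcy7 and Adcy4 they were Rfc5 (0.965), Tmem229b (0.971) and Psph (0.907). Each r is the highest of those with all genes searched, a selection that raises it, and none was tested. These values also share the 8 libraries, 2 of which stand apart, and the members varied by an SD of only 0.083 to 0.169 in log2 CPM.

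The genes around the cyclases gave no calls either. From each list below, the 2 genes with the lowest edgeR p-values are named, so their values in these data chose them. Gnas, Gnal and Adcy10 were named in any case. Of the stimulatory alpha subunits, Gnas (Gs) averaged 1489 ± 17.7 CPM in the controls and 1548 ± 131 CPM in cKO brain (SD, n = 4), a log2 difference of 0.06 (SE 0.060, edgeR adjusted p 0.911). Gnal (Golf, the form that couples striatal dopamine and adenosine receptors to Adcy5) had 267 ± 17.2 and 268 ± 19.9 CPM, with 0.0037 (SE 0.063, edgeR adjusted p 0.995). Without cKO replicate 1, Gnas stood at -0.0029 and Gnal at -0.05, and offsets for GC content put Gnas at -0.015, so that the sign of Gnas turned under both. Of the 5 inhibitory alpha subunit genes 0 passed, with Gnaz at -0.09 and Gnai2 at 0.07. Without cKO replicate 1, Gnaz stood at -0.07 and Gnai2 at 0.02, and with offsets for GC content at -0.13 and 0.0062. Of 13 tested beta and gamma subunit genes 0 passed, with a median of -0.05, Gng10 at -0.18 and Gnb2 at 0.11, and without cKO replicate 1 these 2 genes stood at -0.07 and 0.03.

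Calcium and kinase inputs to the cyclases comprised 17 genes of calmodulin, CaM kinases, protein kinase C and calcineurin. None passed, 14 of 17 had a negative log2 fold change, and the median was -0.08 (0.0034 over all genes), or -0.04 without cKO replicate 1. An unadjusted edgeR p under 0.05 was reached by 2 of 17, against 4.78% of all genes. These were Prkcd, a protein kinase C gene enriched in thalamus, at 71.3 ± 2.08 and 64.1 ± 5.70 CPM (-0.16, SE 0.068), and Camk4, a kinase that inhibits the Adcy1 enzyme, at 73.9 ± 9.97 and 64.9 ± 4.59 CPM (-0.18, SE 0.082), in control and cKO brain (SD, n = 4). Both had an edgeR adjusted p of 0.889. For Camk4, the highest library was control replicate 1, at 88.4 CPM, and the lowest was cKO replicate 1, at 58.5 CPM. These are the 2 libraries that stand apart. Without cKO replicate 1, Camk4 stood at -0.14 and Prkcd at -0.20. The 5 thalamic markers, Prkcd among them, summed to 253 to 294 CPM in control and 245 to 253 CPM in cKO libraries, and their part in the Prkcd value was not tested.

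Of 14 genes of cyclase scaffolds and regulators 0 passed and 11 were negative, with a median of -0.06. An unadjusted edgeR p under 0.05 was reached by 3 of the 14, all lower, where 4.78% of all genes reached it. These were Akap5, Akap6 and Akap9. Akap5 differed by -0.18 (SE 0.080) in log2, with an edgeR adjusted p of 0.889. It was named beyond the 2 genes with the lowest p-values, Akap6 and Akap9, after its values were seen. The anchoring protein genes Akap6 and Akap9, whose products bind cyclases, differed by -0.17 (SE 0.074) and -0.19 (SE 0.083) in log2, each with an edgeR adjusted p of 0.889. In both, control replicate 1 was the highest library, at 384 CPM for Akap6 and 132 CPM for Akap9.

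Among 27 tested receptor genes that couple to Gs, 0 passed and 13 were positive and 14 negative. Adora2b, a low-affinity adenosine receptor, stood at 3.74, 3.57, 3.94 and 2.96 CPM in the 4 controls and at 4.92, 5.05, 4.93 and 4.67 CPM in the 4 cKO libraries, by replicate number. It was the one gene of the 27 whose groups did not overlap, where 2.96% of all genes did not, and its log2 fold change of 0.46 (SE 0.15) had an edgeR adjusted p of 0.889. Single libraries held only 56 to 100 reads of Adora2b. Glp1r, the receptor of glucagon-like peptide 1, stood at 0.38 (SE 0.15). Of the 27, only these 2 genes, both higher, reached an unadjusted edgeR p under 0.05, where 4.78% of all genes did.

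Among 36 tested receptor genes that couple to Gi, 0 passed and 22 were positive. An unadjusted edgeR p under 0.05 was reached by 2 higher and 2 lower genes of the 36, where 4.78% of all genes reached it. The groups of 1 gene did not overlap, against 2.96% of all genes. That gene was Adra2b, an alpha-2 adrenergic receptor, with 1.41 ± 0.0781 CPM in control and 1.99 ± 0.333 CPM in cKO libraries (SD, n = 4), a log2 difference of 0.49 (SE 0.24). The other higher gene was the histamine receptor Hrh3, at 0.17 (SE 0.081). Adra2b and Hrh3 were named beyond the 2 genes with the lowest p-values, after their values were seen. Oprm1, the mu opioid receptor, averaged 4.97 ± 0.486 CPM in the controls and 3.50 ± 0.784 CPM in cKO brain (SD, n = 4). Its log2 fold change of -0.52 (SE 0.17) had an edgeR adjusted p of 0.889, and cKO replicate 1 (4.63 CPM) lay within the control range while the other 3 cKO libraries lay below it. Without cKO replicate 1 the value was -0.67. Chrm2, a muscarinic receptor, stood at -0.18 (SE 0.082). Of the genes for cAMP effectors other than PKA, 0 of 8 tested passed, and their median was 0.11, or -0.0072 without cKO replicate 1, with the channel gene Hcn3 at 0.22 and the exchange factor gene Rapgef3 at 0.15 (0.12 and 0.04 without that library).

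Outside the membrane family, the soluble cyclase gene Adcy10 averaged 0.998 ± 0.414 CPM in the controls and 1.44 ± 0.476 CPM in cKO brain (SD, n = 4), a log2 difference of 0.51 (SE 0.32, edgeR adjusted p 0.889). The other tested genes of this list encode enzymes that make cyclic GMP. Of these 8 genes, Adcy10 included, 0 passed, with the guanylyl cyclase gene Gucy2e at 0.23.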

How the data were processed

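Total RNA from brain was sequenced for 8 libraries, grouped by their titles into 4 control and 4 cKO. The authors deposited raw read counts, whole numbers for each Ensembl gene without normalization. HISAT2 and GRCm39 were used, per the submitters' processing notes; the sources used here do not give the counting program, annotation or strand setting. The 5 closing entries that name no gene stayed out of library sizes and tests (20.3% to 36.2% of listed reads). Symbols were matched for 51880 of 57186 genes.

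Genes were filtered with filterByExpr and scaled by TMM, and cKO was tested against control with edgeR 4.0.16 in R 4.3.3 (quasi-likelihood, robust, group as the only term, Benjamini-Hochberg adjustment over all 16766 genes tested, threshold 0.05). The fits were tried on simulated counts with planted changes larger than those of the cyclase genes. The simulation held no library that stands apart, and no result here rests on it. Lengths, GC content and exon overlaps came from GENCODE M21 (GRCm38). Shares divide reads per kilobase by their sum over the 9 genes. The alternatives were DESeq2 1.42.0, its size factors, library totals, no low-count filter, limma voom 3.58.1, the replicate block, GC-content offsets (loess, span 0.5), other lengths, and libraries left out. The members and lists were chosen with earlier results of these data known. The genes named were Akap11, the 9 members, Adcy10, Gnas, Gnal, the 2 members per list with the lowest p-values, and the closest gene in pattern per member with a mean of at least 10 CPM. The sources used here do not say that replicate numbers mark a litter or batch. The number was therefore a block only among the alternatives, and same-numbered libraries correlated little in their deviations.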

Additional observations from a re-analysis of the deposited data

Results flagged for a closer look

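Of 74 groups of 4 libraries examined, 3 held a value far from the others, where chance alone marks about 1 in 20 groups. Adcy7 stood at 16.2 CPM in control replicate 3, with the other controls between 11.996 and 12.4 CPM. The share of Adcy6 among the 9 cyclase genes was 3.59% in control replicate 1, with the other controls between 4.24% and 4.36%. The share of Adcy7 was 1.03% in cKO replicate 2, with the other cKO libraries between 1.10% and 1.11%.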

How the results depend on the processing

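Under all 16 alternatives 0 of the 9 cyclase genes and 0 genes of the pathway lists passed the threshold. An unadjusted p under 0.05 was reached by Adcy7 in 1, Adcy8 in 2 and Adcy9 in 1 of the 16. Leaving out 1 library, log2 fold changes ran from -0.11 to 0.0029 for Adcy1, -0.011 to 0.062 for Adcy2, -0.035 to 0.11 for Adcy3, -0.098 to 0.066 for Adcy4, -0.063 to 0.041 for Adcy5, 0.0089 to 0.083 for Adcy6, 0.10 to 0.26 for Adcy7, 0.056 to 0.18 for Adcy8 and -0.13 to -0.020 for Adcy9. Signs also turned without both libraries that stand apart for Adcy3 (-0.00013), Adcy4 (-0.040) and Adcy6 (-0.014), with library totals for Adcy5 (0.0027), and for Adcy4 with no low-count filter (-0.00037), limma voom (-0.015) and GC-content offsets (-0.029); the cause was not tested. Values outside these ranges with the same sign were -0.092 for Adcy5 and -0.15 for Adcy9 (unadjusted edgeR p 0.045) with GC-content offsets, and 0.074 for Adcy7 and 0.052 for Adcy8 without both libraries that stand apart. Akap11 stood at -0.41 without both libraries that stand apart. With 1 library left out it ranged from -0.55 to -0.42, and it missed the threshold without control replicate 2 (edgeR adjusted p 0.0616) and without cKO replicate 2 (edgeR adjusted p 0.104). The 4 calls over all genes became 7 with no low-count filter, 2 without both libraries that stand apart and 0 to 3 with 1 library left out; 0 remained without control replicate 2 or without cKO replicate 2.

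The replicate number as a block gave 2 calls over all genes and 0 among the cyclases. Same-numbered libraries correlated by -0.0055 to 0.053 in their deviations, and 1 of 4 correlated best with its own number.

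Shares of the 9 genes moved with the length used, by construction. With coding length they were, in control and cKO brain, 57.7% and 56.3% for Adcy1, 8.90% and 9.33% for Adcy2, 2.84% and 3.03% for Adcy3, 0.263% and 0.269% for Adcy4, 20.4% and 20.7% for Adcy5, 3.27% and 3.47% for Adcy6, 2.26% and 2.54% for Adcy8, 3.57% and 3.44% for Adcy9, and 0.915% for Adcy7 in cKO brain. As shares of reads with no length they were 55.6% and 54.3% for Adcy1, 8.41% and 8.82% for Adcy2, 2.81% and 2.99% for Adcy3, 0.244% and 0.25% for Adcy4, 22.2% and 22.5% for Adcy5, 3.30% and 3.49% for Adcy6, 0.766% and 0.867% for Adcy7, and 4.17% and 4.01% for Adcy9. With the longest transcript, Adcy8 stood at 2.87% and 3.20%, Adcy3 at 4.12% in control brain, and Adcy6 and Adcy7 at 4.72% and 1.19% in cKO brain.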
